A study of Mus musculus with 8 samples.

Results

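The mitochondrial ribosomal protein genes encode the protein subunits of the ribosome that works inside mitochondria. They were taken as the protein-coding genes whose symbol begins with Mrpl, for the large subunit, or Mrps, for the small subunit, followed by a number, after the transcripts of the deposited table had been named with the GENCODE M21 annotation (build mm10). The rule found 78 of the 18137 genes in the table, 49 large subunit and 29 small subunit genes. Of these, 77 averaged at least 0.5 FPKM over the 8 libraries and were tested among 11674 genes. Mrpl38 alone lay below that limit, at a mean of 0.187 FPKM. The table itself is per transcript, and the genes above were the sums of 175 member transcripts.

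The study measured RNA in hearts of wild-type mice, the genotype that the labels give for all samples, in a project on the aging heart. Sedentary mice formed one group and mice trained by swimming the other, with 4 libraries each. No label gives the age or sex of the animals or the length of training. Biological replicates are numbered 1 to 4 within a group, but no label says that they came from separate mice, so the p-values measure the spread between these samples.

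Mitochondrial ribosomes translate only the few proteins encoded in mitochondrial DNA, all of them core subunits of the respiratory chain and of ATP synthase. Their ribosomal RNA comes from the mitochondrial genome, but every protein subunit is encoded in the nucleus, made in the cytosol and imported. Many subunits descend from bacterial ribosomal proteins, others exist only in mitochondria, and in human patients recessive mutations in several of them cause cardiomyopathy, which makes the family of interest in a tissue as dependent on respiration as the heart.

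Values are FPKM, fragments scaled by transcript length and library size, and can therefore be compared between genes. The FPKM total was between 210413 and 235461 per library, and the absolute sequencing depth is unknown because whole reads could not be recovered from the values. Libraries of the same group correlated at 0.942 to 0.951 on the log2 scale and libraries of different groups at 0.941 to 0.950. Markers of heart muscle cells summed to between 6071 and 7317 FPKM and none of 10 was at 0. Sedentary replicate 4 also held liver transcripts (sum of 5 markers 41.5 FPKM, at most 0.579 elsewhere) and fat transcripts (17.5 FPKM, at most 0.824 elsewhere), and summed macrophage markers were higher in the swimming libraries (191 to 211 FPKM) than in the sedentary ones (155 to 164 FPKM). In heart tissue, fewer cells of a type and less RNA per cell cannot be told apart, and the part of these differences in the results was not tested.

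The levels of the members covered a wide range. Large subunit genes had a median of 12.2 FPKM and small subunit genes a median of 8.75 FPKM, both above the median of 4.12 FPKM over all genes tested. The most abundant was Mrpl30, which encodes a bacterial-type protein of the large subunit, at a mean of 88.1 FPKM. In replicates 1 to 4, the order kept for every gene here, it had 56.2, 101, 95.1 and 109 FPKM in the sedentary and 55.7, 92.8, 94.6 and 100 FPKM in the swimming libraries. A single library in each group, replicate 1 in both, lay far below the others.

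The other 5 of the 6 most abundant large subunit genes were steadier. Mrpl42, a mitochondria-specific protein, followed at 46.5 FPKM and is described with the lower genes. Mrpl12, the protein of the flexible stalk to which translation factors bind, had 42.1, 45.4, 48.1 and 49.3 FPKM in sedentary and 46.8, 45.3, 44.6 and 44.5 FPKM in swimming libraries, and its groups overlapped. Mrpl33, a bacterial-type subunit, had 34.7, 33.2, 34.7 and 30.4 FPKM and 36.3, 39.3, 33.2 and 38.3 FPKM in the same order of groups. The highest of the 8 values was 1.17 times the lowest in Mrpl12 and 1.29 times the lowest in Mrpl33.

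Mrpl28, another bacterial-type subunit, had 28.8, 31.4, 40.1 and 34.1 FPKM in sedentary and 35.9, 34.3, 33.2 and 33.8 FPKM in swimming libraries. Mrpl34, also of bacterial type, had 31.4, 33.3, 38.5 and 35.5 FPKM and 31.5, 33.4, 32.7 and 27.8 FPKM. For both genes the highest value was that of sedentary replicate 3 and the groups overlapped.

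At the low end of the large subunit stood Mrpl53, a mitochondria-specific component of the stalk base, with a mean of 1.38 FPKM. It had 0.531, 6.72, 0.556 and 0.742 FPKM in sedentary and 0.481, 0.242, 1.16 and 0.608 FPKM in swimming libraries, so that its mean rested on sedentary replicate 2. Mrpl38, below the limit for testing, had 0.00750, 0.153, 0.421 and 0.0266 FPKM and 0.0879, 0.360, 0.00534 and 0.435 FPKM. Mrpl58, a peptidyl-tRNA hydrolase that releases stalled chains and is also a built-in subunit, had 2.93, 3.08, 3.46 and 3.67 FPKM in sedentary and 3.82, 3.51, 3.33 and 3.58 FPKM in swimming libraries. Its groups overlapped, unlike those of Mrpl32, the remaining low gene, which is described below.

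In the small subunit the most abundant gene was Mrps21, which encodes a bacterial-type protein, at a mean of 31.6 FPKM. Its values were 35.4, 39.8, 39.6 and 14.3 FPKM in sedentary and 37.9, 13.4, 36.0 and 36.8 FPKM in swimming libraries. In each group a single library, sedentary replicate 4 and swimming replicate 2, stood far below the others. Mrps33, a mitochondria-specific subunit, had 20.7, 20.4, 23.4 and 20.6 FPKM and 21.1, 20.1, 17.7 and 17.9 FPKM, and Mrps9, a bacterial-type subunit of the head, had 17.1, 17.5, 19.4 and 17.3 FPKM and 17.7, 15.8, 13.5 and 17.7 FPKM. In both of these the highest value came from sedentary replicate 3 and the lowest from a swimming library.

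Mrps27, a mitochondria-specific subunit with an RNA-binding repeat fold, had 13.1, 15.1, 15.6 and 15.0 FPKM in sedentary and 14.6, 13.7, 13.3 and 14.3 FPKM in swimming libraries. Mrps6, a bacterial-type subunit of the platform, had 13.04, 13.8, 15.7 and 15.7 FPKM and 11.02, 13.03, 14.3 and 13.9 FPKM. Mrps36 carries a ribosomal symbol but encodes a subunit of the 2-oxoglutarate dehydrogenase complex, and it had 17.2, 10.97, 14.2 and 15.1 FPKM and 18.8, 12.96, 9.36 and 11.9 FPKM. The groups of all 3 overlapped.

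The lowest small subunit genes were Mrps10, Mrps26 and Mrps18c. Mrps26, a mitochondria-specific subunit, had 1.87, 1.79, 2.23 and 1.87 FPKM in sedentary and 1.95, 2.08, 2.21 and 2.48 FPKM in swimming libraries. Mrps18c, a bacterial-type subunit, had 2.12, 1.32, 2.86 and 4.05 FPKM and 1.29, 1.498, 2.10 and 2.03 FPKM. Both overlapped between groups, while Mrps10 showed a pattern of its own that is described with its transcripts.

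**Figure D1:**
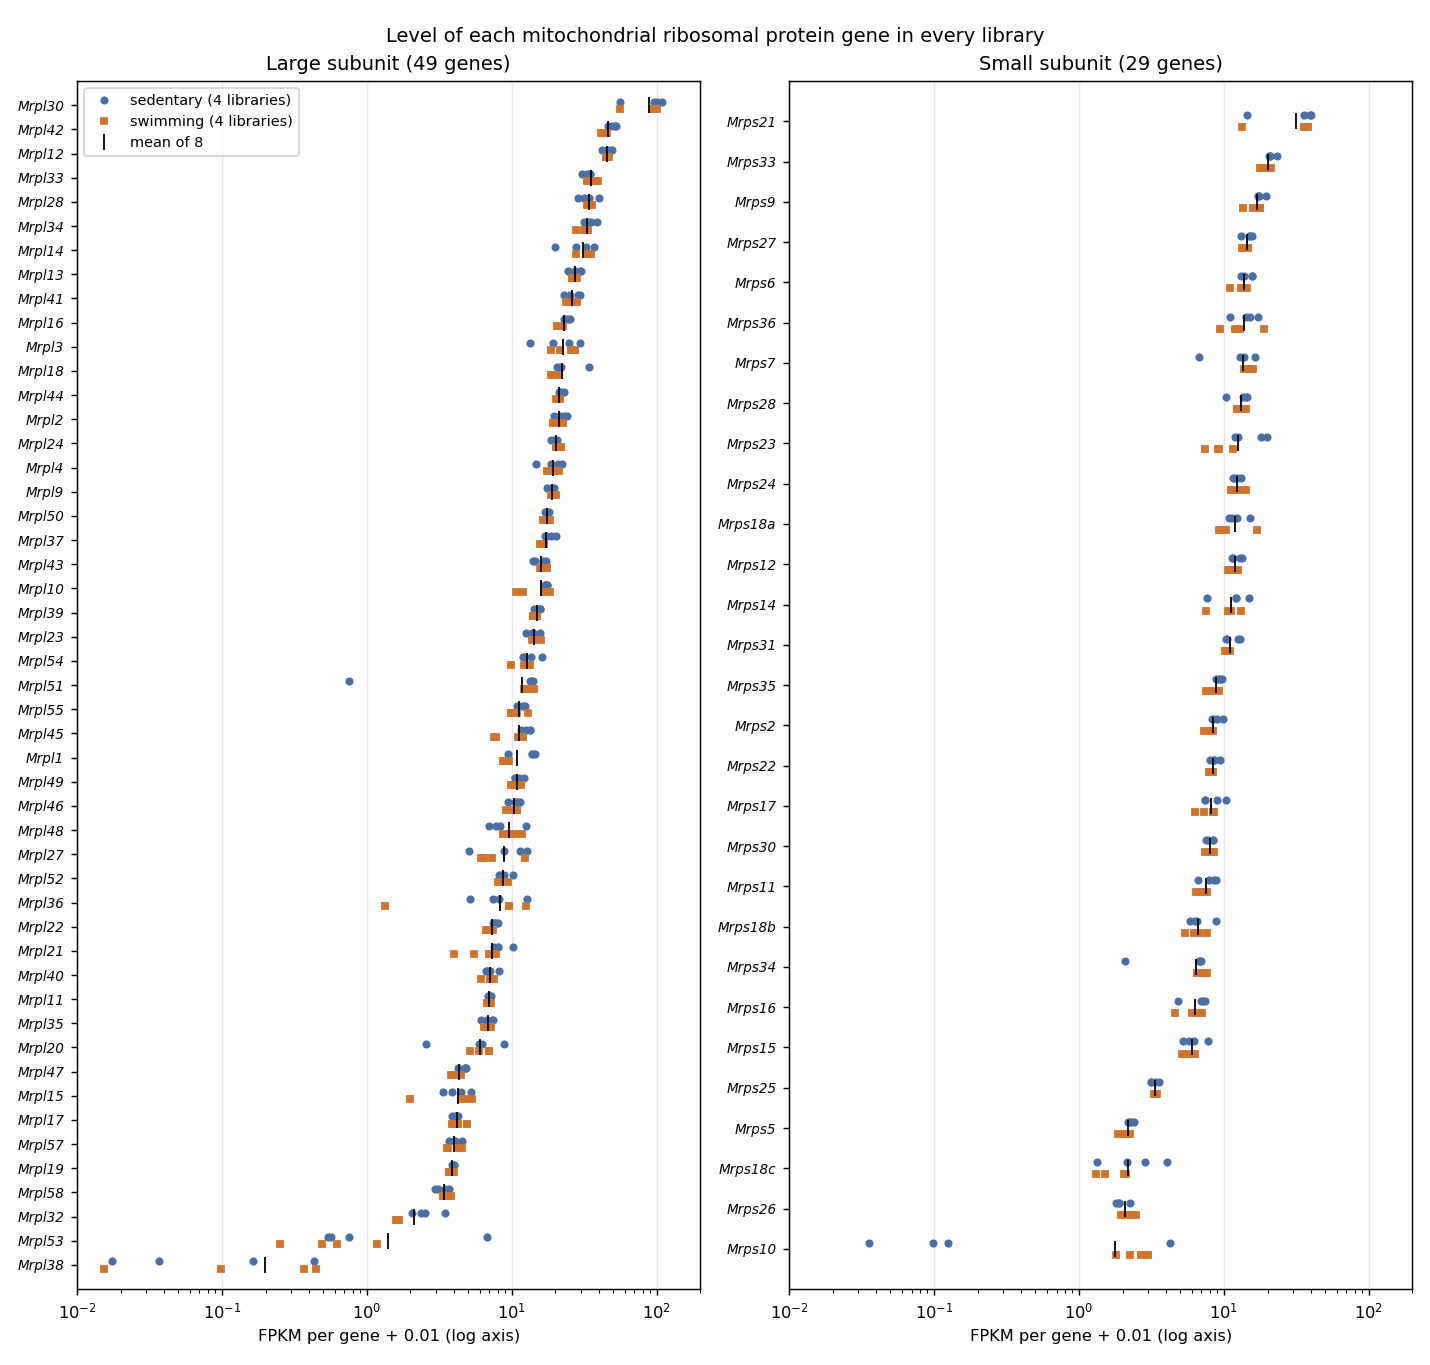
FPKM per gene with 0.01 added (horizontal, log axis) for 49 large subunit and 29 small subunit genes (vertical, ordered by mean), with a blue circle for each of 4 sedentary and an orange square for each of 4 swimming libraries and a black tick at the mean of 8. Mrpl30 leads at a mean of 88.1 FPKM and Mrpl38 is last at 0.187 FPKM, and single libraries stand apart in Mrpl51, Mrpl53, Mrps34 and Mrps10.

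The spread over the 8 libraries was small in many members and large in some. The coefficient of variation (SD over mean, 8 libraries) was not computed over all genes. It had a median of 9.69% over the 77 members tested and was below 10% in 41 of them. It was lowest in Mrpl11, a protein of the stalk base, at 2.07%. In 16 genes the highest library exceeded the lowest more than 2-fold, and in 4 of these more than 5-fold: Mrps10, Mrpl53, Mrpl51 and Mrpl36. Mrpl51, a mitochondria-specific subunit, had 13.8, 13.4, 0.740 and 13.9 FPKM in sedentary and 12.97, 12.5, 12.2 and 14.2 FPKM in swimming libraries, with sedentary replicate 3 far below the rest. Mrpl36, the bacterial-type protein L36 of the large subunit, had 7.47, 12.8, 8.11 and 5.15 FPKM and 12.5, 9.52, 1.33 and 9.63 FPKM, and swimming replicate 3 was its low library. Mrpl51, Mrpl36 and Mrpl11 are named after their values were seen.

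Summed over the subunit, the 48 large subunit genes tested gave 735, 842, 869 and 880.0 FPKM in the sedentary and 779, 803, 788 and 819 FPKM in the swimming libraries. The small subunit genes gave 299, 309, 311 and 296 FPKM in sedentary and 300, 267, 285 and 287 FPKM in swimming libraries. The means were 832 ± 66.2 and 797 ± 17.6 FPKM for the large and 304 ± 7.10 and 285 ± 13.7 FPKM for the small subunit (SD, n = 4 each). The ratio of the 2 sums was 2.74 ± 0.214 in sedentary and 2.81 ± 0.172 in swimming hearts, and the difference was smaller than either SD. Within each group the ratio was lowest in replicate 1 (2.46 sedentary, 2.60 swimming), where Mrpl30 was low. It was highest in sedentary replicate 4 (2.97) and swimming replicate 2 (3.01), where Mrps21 was low. Sedentary replicate 1 had the lowest large subunit sum of all 8 libraries, while the other 3 sedentary libraries lay above every swimming library. The mean log2 level of the large subunit exceeded that of the small subunit by 0.57 ± 0.048 in sedentary and by 0.52 ± 0.033 in swimming hearts.

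To ask whether swimming changed any member, gene values were compared between groups with limma on log2(FPKM + 0.5), and p-values were adjusted by the Benjamini-Hochberg method over all 11674 genes. No member passed an adjusted p of 0.05: 0 of 77, where 2 of all genes did (0.0171%). The lowest limma adjusted p of a member was 0.559, in Mrpl32. At an unadjusted p below 0.05, 10 members had lower values in swimming hearts and 0 had higher values. Over all genes 2.43% were lower and 4.93% higher by that measure. In 6 members all 4 swimming libraries lay below all 4 sedentary ones, against 1.58% of all genes, and in 0 members all lay above, against 3.24% of all genes. Of the 10, 9 encode large subunit proteins and 1 (Mrps23) a small subunit protein. With median-of-ratios scaling the numbers at an unadjusted p below 0.05 were 14 lower and 0 higher among members and 452 lower and 398 higher among all genes, and with every library set to the same total over named genes they were 5 and 3 among members and 137 and 1154 among all genes. Quantile normalization gave 11 and 0 among members and 391 and 423 among all genes.

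Fold changes of the members were small and leaned to the lower side. A negative log2 fold change was found in 53 of 77 members, in 32 of 48 large and 21 of 29 small subunit genes, against 41.3% of all genes. The median log2 fold change was -0.072 over the members, -0.046 over the large and -0.11 over the small subunit, and 0.030 over all genes. Over 20 alternative settings between 44 and 58 members were negative and the members' median stayed below that of all genes by 0.081 to 0.12 log2 units, while the median of the large subunit alone turned to 0.0090 when libraries were set to the same total over named genes. The middle 50% of the members lay between -0.15 and 0.027. These are counts and medians over genes that share libraries, and no p-value is attached to them.

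**Figure D2:**
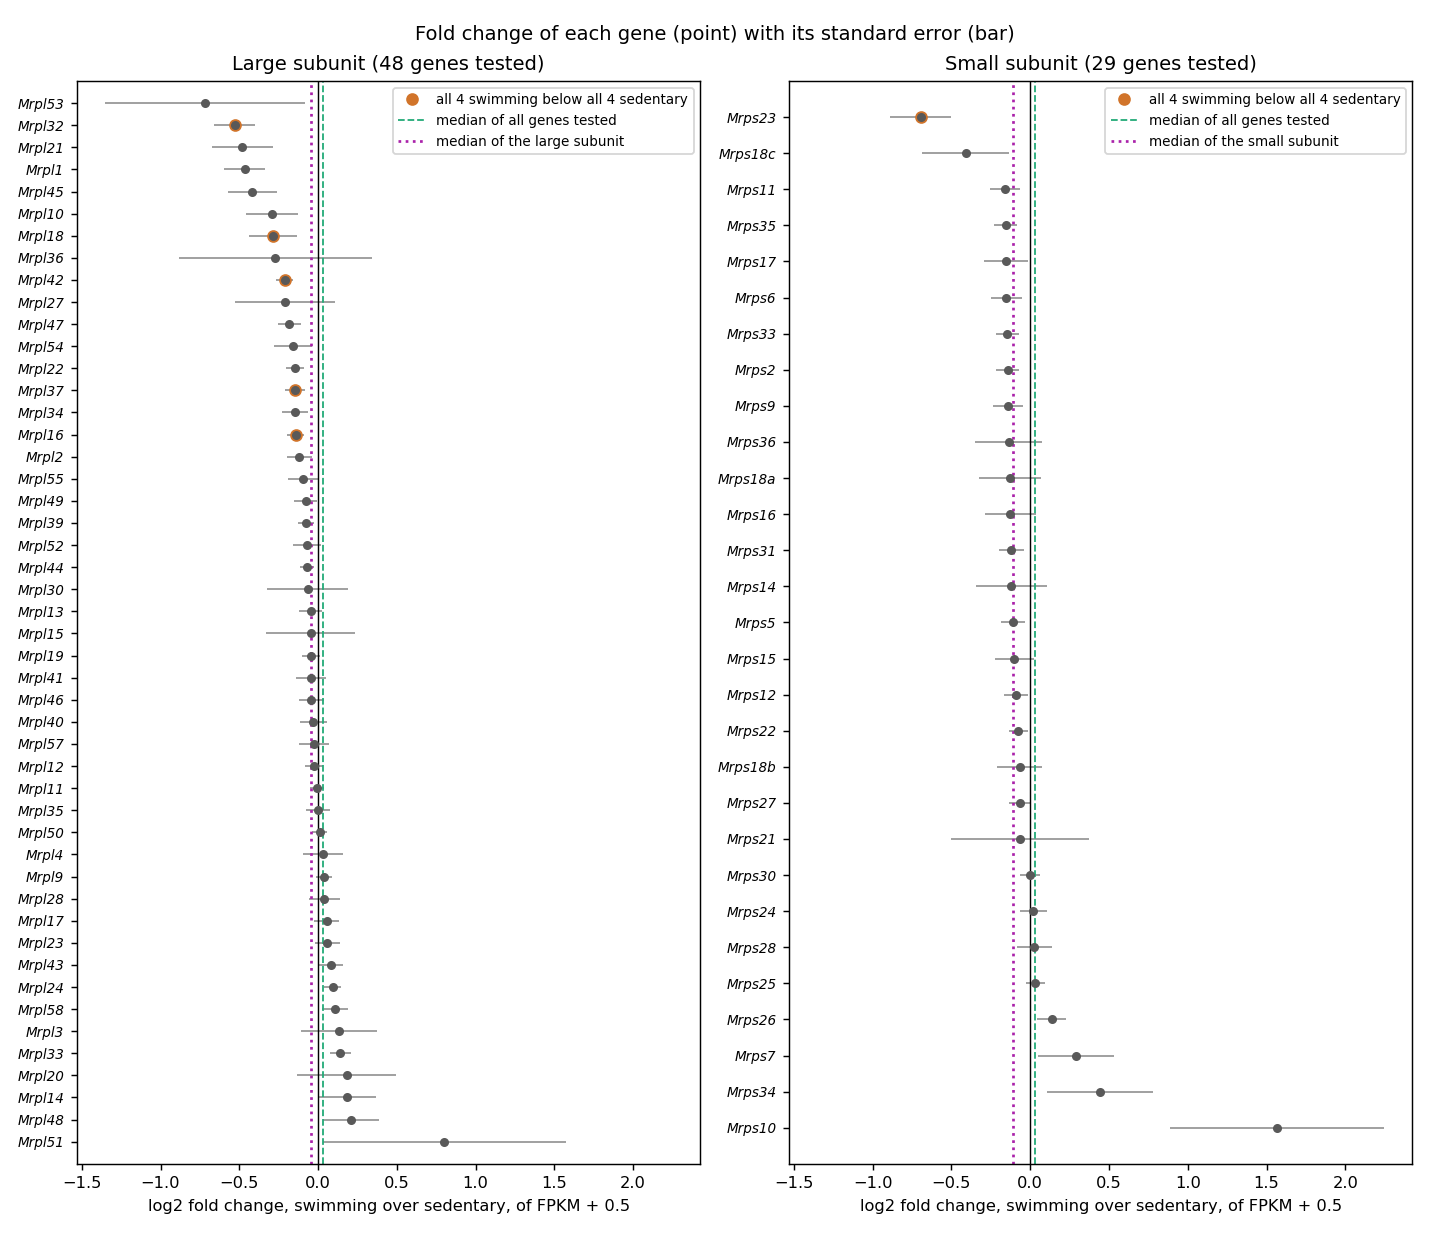
Log2 fold change of FPKM + 0.5, swimming over sedentary (horizontal), of each tested gene of the large (48, left) and small subunit (29, right), ordered by fold change, with a bar of 1 standard error on each side. An orange rim marks the 6 genes whose 4 swimming libraries all lie below the 4 sedentary ones, the dashed line is the median of all genes (0.030) and the dotted line the median of the subunit (-0.046 and -0.11), and most points lie left of 0.

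The 6 members without overlap between groups are given in full. In each of them the swimming libraries were the lower ones. Mrpl32 (ENSMUSG00000015672, chr13:14608184-14613165, minus strand) encodes a bacterial-type subunit that an inner membrane protease has to cleave before it can join the large subunit. It had 2.34, 3.44, 2.52 and 2.03 FPKM in sedentary and 1.66, 1.58, 1.59 and 1.5997 FPKM in swimming libraries (log2 fold change -0.53 with SE 0.13 and limma adjusted p = 0.559). The swimming libraries agreed within 0.1 FPKM of each other and the sedentary ones were spread over more than 1 FPKM, with sedentary replicate 2 the highest.

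Mrpl42 (ENSMUSG00000062981, chr10:95480805-95501940, minus strand), the second most abundant member, had 46.1, 49.6, 52.2 and 52.0 FPKM in sedentary and 43.9, 41.8, 41.2 and 45.2 FPKM in swimming libraries (log2 fold change -0.21 with SE 0.056 and limma adjusted p = 0.578). The gap between the groups was under 1 FPKM, between sedentary replicate 1 and swimming replicate 4. The sum includes Mrpl42-205, a form annotated for nonsense-mediated decay. This form had 13.4, 15.2, 15.2 and 15.0 FPKM in sedentary and 11.9, 12.9, 11.4 and 3.12 FPKM in swimming libraries. Its part in the lower values of the gene was not tested. Mrps23 (ENSMUSG00000023723, chr11:88204388-88211507, plus strand), a mitochondria-specific small subunit protein, had 18.0, 12.4, 19.97 and 12.0 FPKM and 9.28, 11.5, 7.43 and 9.09 FPKM (log2 fold change -0.69 with SE 0.19 and limma adjusted p = 0.597). Its sedentary libraries fell into a high pair, replicates 1 and 3, and a low pair that lay just above swimming replicate 2.

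Mrpl16 (ENSMUSG00000024683, chr19:11770391-11774960, plus strand) encodes a core bacterial-type protein near the tRNA sites and had 22.8, 24.6, 25.1 and 23.2 FPKM in sedentary and 22.4, 21.6, 20.4 and 22.0 FPKM in swimming libraries (log2 fold change -0.14 with SE 0.052 and limma adjusted p = 0.657). Mrpl37 (ENSMUSG00000028622, chr4:107055874-107066868, minus strand), mitochondria specific, had 17.0, 18.6, 20.1 and 17.3 FPKM and 16.8, 16.7, 15.7 and 16.6 FPKM (log2 fold change -0.15 with SE 0.062 and limma adjusted p = 0.671). In both genes the highest value was that of sedentary replicate 3, the lowest that of swimming replicate 3, and the gap between groups was under 0.5 FPKM. Mrpl18 (ENSMUSG00000057388, chr17:12911349-12916345, minus strand), a protein of the central protuberance, had 21.5, 20.6, 34.3 and 21.9 FPKM in sedentary and 18.5, 19.96, 20.4 and 19.6 FPKM in swimming libraries (log2 fold change -0.29 with SE 0.15 and limma adjusted p = 0.708). Sedentary replicate 3 stood far above the rest, and the other sedentary libraries exceeded the swimming ones by little. Mrpl18 and Tcp1 start close together on opposite strands and share exon sequence in the annotation, so reads there could be counted for either gene if the libraries do not mark the strand.

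**Figure D3:**
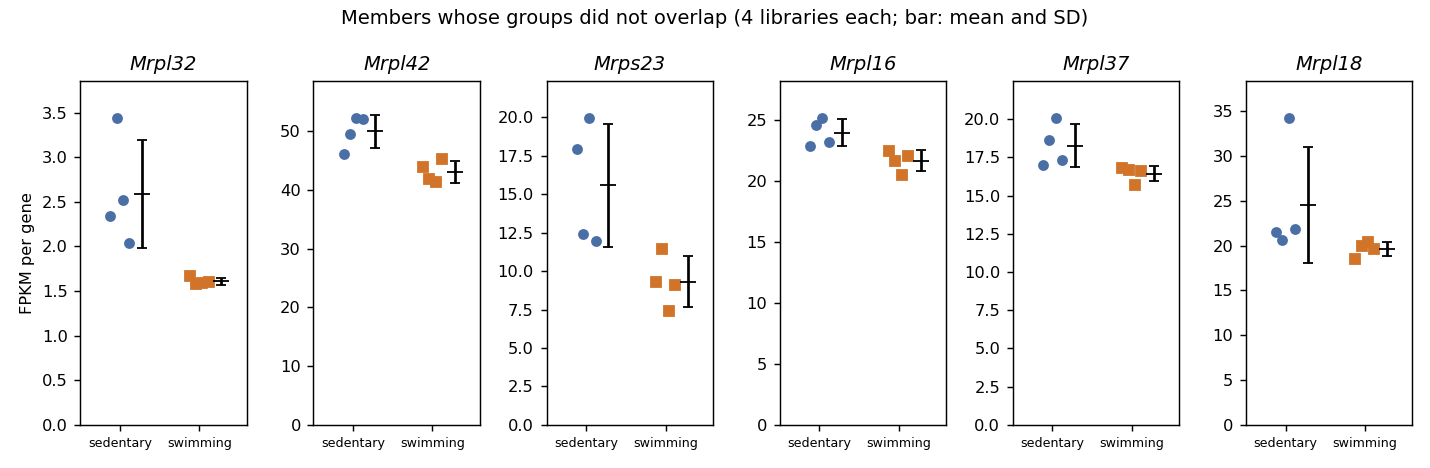
FPKM per gene (vertical, from 0) of the 6 members whose groups did not overlap, with 4 sedentary (blue circles) and 4 swimming libraries (orange squares) and the mean and SD of each group as a black bar. In each panel every swimming library lies below every sedentary one, with the largest relative distance in Mrpl32 and Mrps23 and a single high sedentary library in Mrpl18.

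The remaining members with the smallest p on the lower side overlapped between groups. Mrpl1 (ENSMUSG00000029486, chr5:96209493-96266727, plus strand), the protein of the mobile L1 stalk at the tRNA exit site, had 13.7, 13.7, 9.36 and 14.5 FPKM in sedentary and 8.67, 9.13, 9.53 and 8.87 FPKM in swimming libraries (log2 fold change -0.46 with SE 0.13 and limma adjusted p = 0.598). Sedentary replicate 3 lay among the swimming libraries, and without it the log2 fold change was -0.60 and passed the test (limma adjusted p = 0.0470; range over 20 alternatives 0.0470 to 0.826). That library also shared the swimming libraries' mixture of transcripts of unequal length, described below. The part of this mixture in the fold change and in the call was not tested. Mrpl45 (ENSMUSG00000018882, chr11:97315716-97329920, plus strand), which anchors the ribosome to the inner membrane at the exit tunnel, had 11.7, 13.4, 12.6 and 13.3 FPKM and 7.49, 7.76, 11.1 and 12.0 FPKM (log2 fold change -0.42 with SE 0.16 and limma adjusted p = 0.657). Swimming replicates 1 and 2 were far below the rest and swimming replicate 4 was above sedentary replicate 1.

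Mrpl22, which lines the exit tunnel, had 7.56, 8.09, 7.45 and 7.73 FPKM in sedentary and 6.74, 7.46, 6.81 and 6.66 FPKM in swimming libraries (log2 fold change -0.15 with SE 0.057 and limma adjusted p = 0.658). Mrpl47, also near the tunnel exit, had 4.75, 4.75, 4.81 and 4.25 FPKM and 3.84, 4.48, 4.03 and 3.79 FPKM (log2 fold change -0.18 with SE 0.072 and limma adjusted p = 0.658). For each of these genes only 1 swimming library reached into the sedentary range. Mrpl47 shares exon sequence with Ndufb5 on the other strand. Mrpl21, a bacterial-type core protein, had a log2 fold change of -0.48 with SE 0.19 (limma adjusted p = 0.665). It is the last to be described of the 10 members below an unadjusted p of 0.05, to which Mrpl18 does not belong (limma unadjusted p = 0.102).

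On the higher side the member with the smallest p was Mrps10, described with its transcripts below. Mrpl33 and Mrpl24 followed, with log2 fold changes of 0.14 with SE 0.069 (limma adjusted p = 0.698) and 0.092 with SE 0.055 (limma adjusted p = 0.729). Mrpl24, a bacterial-type protein near the exit tunnel, had 19.5, 18.5, 20.7 and 20.01 FPKM in sedentary and 22.0, 20.1, 20.1 and 21.8 FPKM in swimming libraries. Its 2 highest libraries were swimming replicates 1 and 4, and the rest were mixed. Mrps26 and Mrpl58 had log2 fold changes of 0.14 (SE 0.092) and 0.10 (SE 0.082), with limma adjusted p of 0.764 and 0.790. When Mrpl58 was measured by its most abundant transcript alone its fold change turned to -0.013.

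Mrps34, a mitochondria-specific protein required for a stable small subunit, had 6.73, 6.95, 2.07 and 6.78 FPKM in sedentary and 7.03, 7.58, 7.49 and 6.55 FPKM in swimming libraries (log2 fold change 0.44 with SE 0.34 and limma adjusted p = 0.783). A single library, sedentary replicate 3, was low. The transcript holding between 80.8% and 96.7% of Mrps34 in each library is annotated as a target of nonsense-mediated decay and runs on into Nme3 on the same strand, so its reads cannot be told from those of Nme3 where the exons overlap. Mrps7, a bacterial-type subunit of the head, had 12.9, 13.8, 6.67 and 16.4 FPKM and 15.8, 14.2, 13.7 and 14.8 FPKM (log2 fold change 0.29 with SE 0.24 and limma adjusted p = 0.799), and again the low value was that of sedentary replicate 3. Mrpl48, a protein of the central protuberance, had 7.79, 6.93, 12.6 and 8.27 FPKM in sedentary and 10.6, 11.7, 9.77 and 8.63 FPKM in swimming libraries (log2 fold change 0.21 with SE 0.18 and limma adjusted p = 0.803), and here sedentary replicate 3 was the highest.

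Members whose human counterparts carry mutations that cause cardiomyopathy did not pass the test. Mrpl3, a bacterial-type core protein, had 13.4, 19.3, 24.96 and 29.7 FPKM in sedentary and 21.4, 25.5, 27.2 and 18.6 FPKM in swimming libraries (log2 fold change 0.13 with SE 0.24 and limma adjusted p = 0.912). Mrpl44, which resembles a ribonuclease and sits at the surface of the large subunit, had 21.4, 21.7, 22.97 and 21.3 FPKM and 20.8, 20.7, 20.2 and 21.4 FPKM (log2 fold change -0.069 with SE 0.044 and limma adjusted p = 0.758). Mrpl3 varied more than 2-fold without regard to group, while Mrpl44 was among the steadiest members.

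Mrps14, a bacterial-type protein of the head, had 15.0, 12.1, 7.65 and 12.2 FPKM in sedentary and 11.2, 7.56, 13.1 and 10.7 FPKM in swimming libraries (log2 fold change -0.12 with SE 0.22 and limma adjusted p = 0.914). Mrps22, mitochondria specific, had 8.49, 7.96, 8.60 and 9.34 FPKM and 7.89, 7.87, 8.45 and 8.31 FPKM (log2 fold change -0.074 with SE 0.061 and limma adjusted p = 0.798). Mrps5, whose level across mouse strains has been related to lifespan, had 2.39, 2.16, 2.27 and 2.23 FPKM in sedentary and 1.84, 2.24, 2.05 and 2.13 FPKM in swimming libraries (log2 fold change -0.11 with SE 0.075 and limma adjusted p = 0.764). All of these overlapped between groups, and Mrpl12, also linked to disease, had a log2 fold change of -0.026 with SE 0.057 (limma adjusted p = 0.929). The sign of Mrpl3, Mrps14 and Mrpl12 changed under 2, 3 and 2 of 20 alternatives.

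Grouped by origin, 19 of 30 bacterial-type and 13 of 18 mitochondria-specific large subunit genes had negative log2 fold changes, with medians of -0.046 and -0.056. In the small subunit these were 12 of 16 bacterial-type (median -0.11) and 8 of 12 mitochondria-specific genes (median -0.071), with Mrps36 counted in neither. The 4 genes of the stalk of the large subunit, Mrpl10, Mrpl11, Mrpl12 and Mrpl53, all had negative log2 fold changes, and 0 of them passed the test. The values ran from -0.72 (SE 0.63) in Mrpl53, whose sedentary mean rested on replicate 2, to -0.0062 (SE 0.047) in Mrpl11. Those of Mrpl11 and Mrpl12 (-0.026, SE 0.057) were smaller than their SE. Moving Mrps18a and Mrps30 to the large subunit, where structures place their proteins, and leaving out Mrps36 gave medians of -0.046 for the large and -0.11 for the small subunit.

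Per library, the median deviation of the large subunit genes from their own 8-library means was -0.042, 0.014, 0.10 and 0.087 log2 units in the sedentary and -0.025, -0.032, -0.029 and 0.0036 log2 units in the swimming libraries. For the small subunit genes it was -0.028, 0.061, 0.086 and 0.081 in the sedentary and 0.026, -0.056, -0.0066 and -0.0067 in the swimming libraries. Sedentary replicates 2, 3 and 4 were the high libraries while sedentary replicate 1 lay below all swimming libraries for the large subunit and among them for the small subunit, so the groups overlapped for both. The share of FPKM from all named genes of mitochondrial DNA was also lower in swimming libraries, at 20.8%, 20.3%, 19.7% and 19.1% of the total in the sedentary and 18.5%, 13.4%, 16.7% and 18.3% in the swimming libraries, without overlap. The members' own share of the total overlapped, at 0.456% to 0.503% in sedentary and 0.470% to 0.508% in swimming libraries. Without swimming replicates 2 and 3, the libraries with the lowest mitochondrial share, the median log2 fold change of the members was -0.036. The part of the mitochondrial share in the lower values of the members was not tested further. Of the 77 members, 57 had their highest value in a sedentary library, 22 of them in sedentary replicate 3 and 19 in sedentary replicate 4. The lowest value was that of a swimming library in 51 members, 18 of them in swimming replicate 3. The highest and lowest libraries were not counted over all genes, so these numbers have no background beside them.

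Other genes of the same machinery had fold changes on both sides of 0. Of 4 tested subunits without an Mrpl or Mrps symbol, 2 were higher and 2 lower (median 0.030): Dap3, Ptcd3, Aurkaip1 and Chchd1 had log2 fold changes of 0.078, 0.091, -0.018 and -0.062. Of 17 mitochondrial translation factors 8 had positive and 9 negative log2 fold changes (median -0.0059), and 0 passed the test. Those with the smallest p were Pdf, the mitochondrial peptide deformylase (log2 fold change 0.19), Taco1, an activator of Cox1 translation (-0.16), Mtfmt, which formylates the initiator tRNA (-0.29), and the elongation factor Gfm1 (-0.069). Their limma adjusted p lay between 0.675 and 0.764.

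Of 29 assembly factors of the mitochondrial ribosome 12 had positive and 17 negative log2 fold changes (median -0.016), and again 0 passed. Mterf3, a regulator of mitochondrial transcription and ribosome assembly, had 7.78, 7.67, 6.98 and 6.85 FPKM in sedentary and 5.44, 6.41, 6.17 and 6.21 FPKM in swimming libraries (log2 fold change -0.25 with SE 0.072 and limma adjusted p = 0.597), with every swimming library below every sedentary one. The RNA-modifying enzymes Rpusd4 and Mrm2 had log2 fold changes of 0.24 and 0.23, and the GTPase Noa1 one of -0.16. Their limma adjusted p lay between 0.654 and 0.674. Noa1 was also without overlap, on the lower side, and Mtg2 was without overlap on the higher side (log2 fold change 0.11, limma adjusted p = 0.702). Of the 29 factors, 2 were thus separated lower and 1 higher, against 1.58% and 3.24% of all genes. The nuclear genes of the respiratory chain, whose partner subunits the mitochondrial ribosome makes, had a median of -0.081 with 58 of 79 negative. The 81 cytosolic ribosomal protein genes had a median of 0.071 with 25 negative, and of 11 mitochondrially encoded genes 6 were negative, beside the lower mitochondrial share of every swimming library given above. The differences between these lists were not tested.

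**Figure D4:**
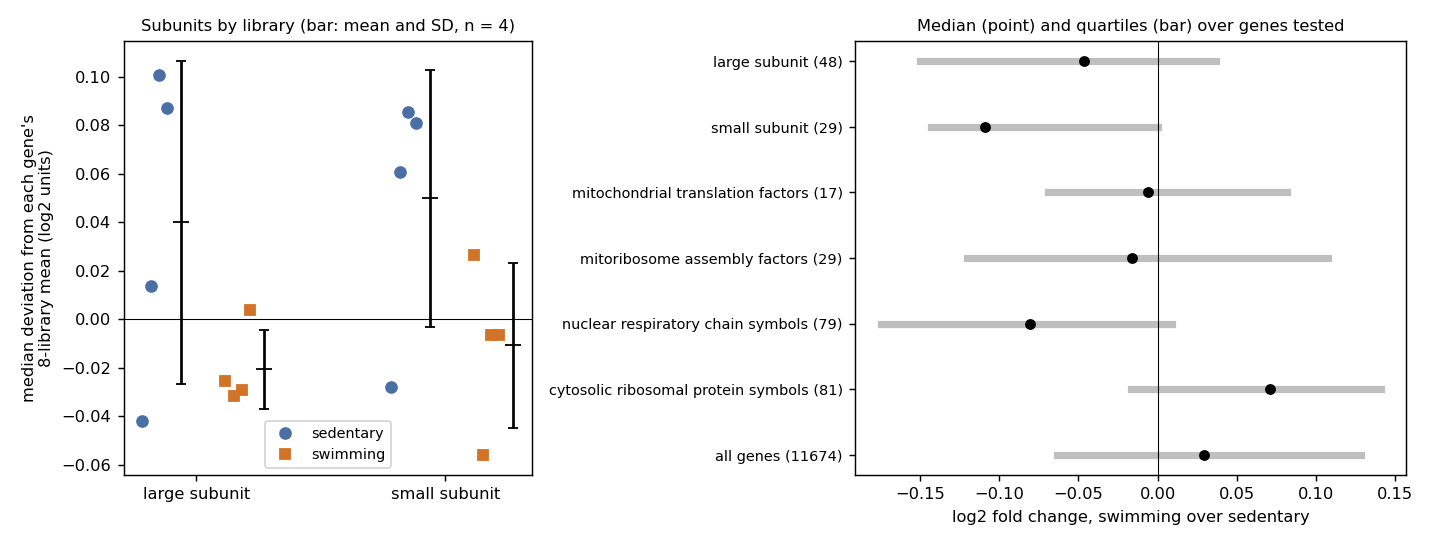
Left, median deviation of the large and small subunit genes from each gene's 8-library mean in log2 units (vertical) for each library, with the mean and SD of 4 libraries as a bar. Right, median (point) and quartiles (bar) of the log2 fold change, swimming over sedentary, for the number of tested genes given in brackets, where both subunits and the nuclear respiratory chain genes lie left of 0 and the cytosolic ribosomal protein genes right of it.

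Transcripts of the members were then compared singly. Of 126 member transcripts tested among 22614, 79 had negative and 47 positive log2 fold changes, where 44.9% of all transcripts were negative, and at an unadjusted p below 0.05 there were 9 lower and 3 higher, where all transcripts gave 2.09% and 3.41%. A single member transcript passed an adjusted p of 0.05, Mrps10-204, on the higher side. Of all transcripts 12 passed (0.0531%), 6 in each direction (0.0265%). Of the 28 members with at least 2 transcripts above a mean of 0.5 FPKM, 3 differed between groups by at least 20 percentage points in the share of their most abundant transcript, namely Mrpl1, Mrps10 and Mrpl48. In 8 of the 28 that share differed by at least 50 percentage points between libraries. Neither number was counted over all genes. The sedentary shares of Mrps10 rest on low levels, with 0.115, 0.0256 and 0.0881 FPKM for the gene in replicates 1, 3 and 4.

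Mrps10 (ENSMUSG00000034729, chr17:47368887-47381417, plus strand) encodes a bacterial-type protein of the head of the small subunit. The gene had 0.115, 4.22, 0.0256 and 0.0881 FPKM in sedentary and 2.99, 1.79, 2.66 and 2.24 FPKM in swimming libraries (log2 fold change 1.57 with SE 0.68 and limma adjusted p = 0.671). All swimming libraries exceeded 1 FPKM, while of the sedentary libraries replicate 2 alone did and was the highest of all 8. Without that library the log2 fold change was 2.33 and passed the test (limma adjusted p = 0.0233; range over 20 alternatives 0.0233 to 0.870).

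The transcript Mrps10-204 (ENSMUST00000120737) rose in swimming hearts, from 0.115, 0, 0 and 0 FPKM in sedentary to 1.59, 0.890, 1.53 and 1.24 FPKM in swimming libraries (log2 fold change 1.77 with SE 0.19 and limma adjusted p = 0.0492). Mrps10-203 (ENSMUST00000119945) had 0, 4.22, 0.0256 and 0.0881 FPKM in sedentary and 1.39, 0.903, 1.13 and 1.00 FPKM in swimming libraries. Each swimming library thus held both forms, in shares of 42.6% to 50.4% for Mrps10-203, and sedentary replicate 2 held Mrps10-203 alone. The call for Mrps10-204 was lost under 11 of 12 alternatives, with pseudocounts of 0.1 and 1 (limma adjusted p = 0.0906 and 0.0545) and without any one of 7 libraries among them, and was kept without swimming replicate 2 (limma adjusted p from 0.0315 to 0.903 over the 12).

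The transcripts differ by 3 bases at the start of exon 3, with a coding sequence of 603 bases in Mrps10-203 and 600 bases in Mrps10-204. The junction of exons 2 and 3 is shown, with 30 bases on each side, because it is the only coding difference between the form that rose and the other. Capitals mark the 3 bases that only Mrps10-203 holds. Exon 3 is chr17:47372573-47372645 in Mrps10-203 and chr17:47372576-47372645 in Mrps10-204 (plus strand, mm10, GENCODE M21).
Mrps10-203: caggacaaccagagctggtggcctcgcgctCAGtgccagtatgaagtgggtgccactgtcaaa
Mrps10-204: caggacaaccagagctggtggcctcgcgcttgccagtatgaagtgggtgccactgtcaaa
Outside this junction the annotated forms differ by 4 bases at the start and 2 at the end, so the authors' values for them rest on reads over very few bases.

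The mixture of forms of Mrpl1 differed between libraries, as did its summed level. Mrpl1-203 has 7 exons, ends at position 96239684 and encodes 828 bases of coding sequence, while Mrpl1-201 has 9 exons and 1008 coding bases. Mrpl1-203 had 10.51, 10.2, 1.64 and 10.7 FPKM in sedentary and 2.31, 2.09, 1.87 and 2.11 FPKM in swimming libraries, and Mrpl1-201 had 0.963, 1.37, 7.72 and 0.483 FPKM and 6.28, 7.04, 7.66 and 6.76 FPKM. Sedentary replicates 1, 2 and 4 were dominated by the short form and the other 5 libraries, sedentary replicate 3 among them, by the full-length form. Mrpl1-202, with a further upstream first exon, had 2.27, 2.22, 0.000640 and 3.35 FPKM in sedentary and 0.0778, 0.000653, 0.00216 and 0.00155 FPKM in swimming libraries, and followed the short form. The share of Mrpl1-203 was 60.4% ± 28.6 in sedentary and 23.2% ± 2.91 in swimming hearts (SD, n = 4 each), with overlap through sedentary replicate 3. The annotated lengths are 1550 bases for Mrpl1-203, 3431 for Mrpl1-201 and 3556 for Mrpl1-202. Because FPKM is scaled by length, the summed level of Mrpl1 also depends on how reads were divided among these forms. The part of this division in the lower swimming values of the gene was not tested.

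Mrpl48-207, the most abundant form of Mrpl48, had 3.09, 3.32, 0.539 and 3.62 FPKM in sedentary and 7.92, 8.08, 5.03 and 3.74 FPKM in swimming libraries. All swimming libraries lay above the sedentary ones, but replicate 4 did so narrowly (3.74 FPKM in swimming against 3.62 FPKM in sedentary). Transcripts without overlap between groups were not counted over all transcripts. The share of Mrpl48-207 in the gene was 33.9% ± 20.04 and 59.7% ± 14.7 (log2 fold change 1.21 with SE 0.48 and limma adjusted p = 0.877 for the transcript). Mrpl48 shares exon sequence with Rab6a on the other strand. In sedentary replicate 3 a form annotated for nonsense-mediated decay, Mrpl48-202, stood at 6.83 FPKM, against at most 0.0633 FPKM elsewhere.

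A pair of members split by library and not by group. Mrpl30-207 had 14.1, 78.2, 72.9 and 85.8 FPKM in sedentary and 12.0, 72.0, 74.0 and 76.8 FPKM in swimming libraries, so that replicate 1 of each group was low, and Mrpl30-201 was at its highest in the same libraries (29.4 and 31.8 FPKM). Mrpl3-204, a form annotated for nonsense-mediated decay, had 0, 0, 12.3 and 19.2 FPKM in sedentary and 2.90, 14.5, 17.1 and 1.03 FPKM in swimming libraries. It was the most abundant Mrpl3 form on average and was listed at 0 in sedentary replicates 1 and 2.

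**Figure D5:**
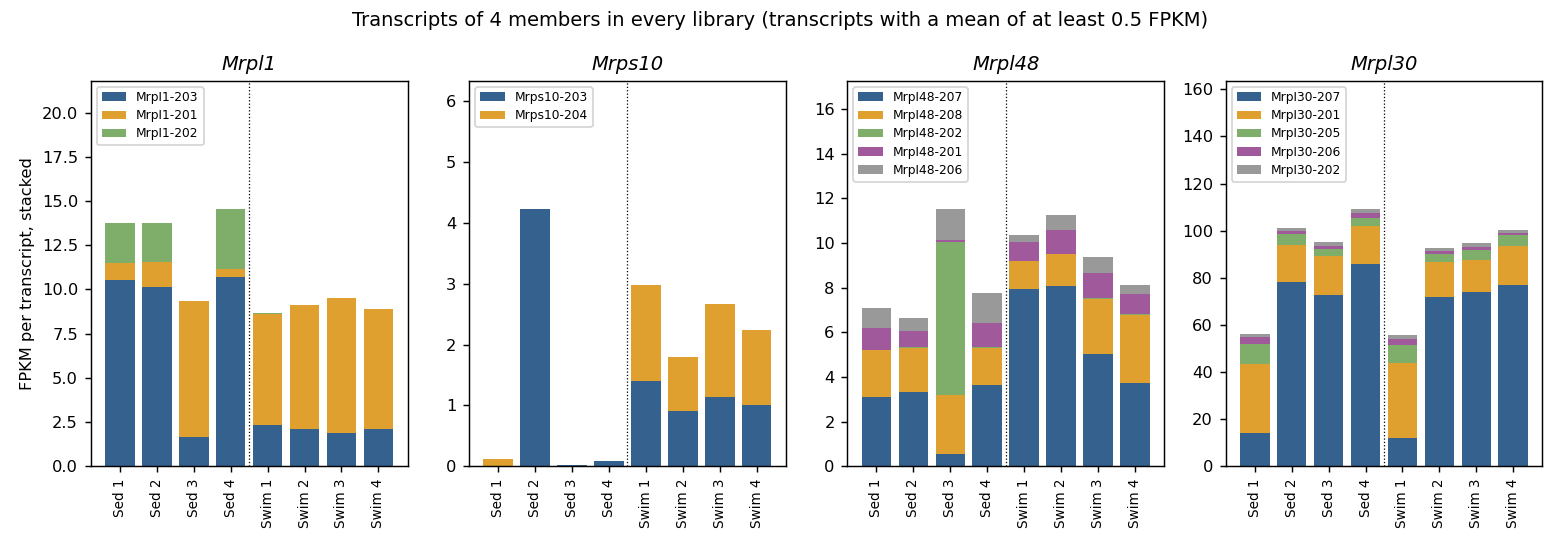
Stacked FPKM (vertical, from 0) of the transcripts of Mrpl1, Mrps10, Mrpl48 and Mrpl30 that averaged at least 0.5 FPKM, in each of 4 sedentary and 4 swimming libraries, divided by a dotted line. Sedentary replicate 3 has the mixture of the swimming libraries in Mrpl1, sedentary replicate 2 alone reaches their level in Mrps10, and replicate 1 of both groups stands apart in Mrpl30.

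The genes lie apart in the genome but often share a start region with another gene. The 78 members are on 17 chromosomes, with 11 of them on chromosome 11. For 33 of the 77 tested (42.9%) another coding gene has its annotated start within 1000 bases on the opposite strand, against 16.0% of 11657 coding genes tested. A single pair of members is arranged in this way, Mrps11 with Mrpl46, at log2 fold changes of -0.16 (SE 0.10) and -0.042 (SE 0.079). Mrpl32 faces Psma2, a proteasome subunit gene whose mean was 17.3 FPKM without and 17.0 FPKM with swimming (log2 fold change -0.028). Other partners are respiratory chain genes, Ndufs6 for Mrpl36 and Ndufb5 for Mrpl47, and Sars2, the mitochondrial seryl-tRNA synthetase, for Mrps12. Exons of 33 members overlap an exon of another gene in the annotation, 28 on the opposite and 8 on the same strand.

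Promoters from RefSeq (build GRCm38.p6, 250 bases before to 50 after the start) matched 69 members with 75 promoters. They were searched on both strands for 3 motifs, GCGC followed by any 2 bases and again GCGC for NRF1, CCGGAAG for ETS factors such as GABPA and AAGATGGC for YY1, all factors known to act on genes of mitochondrial function, and none of the 3 motifs contains another. The NRF1 motif was in 14 of the 69 genes (20.3%) against 15.4% of the tested genes with a promoter, the ETS motif in 26 (37.7%) against 20.2%, and the YY1 motif in 12 (17.4%) against 5.26%. Over all 32851 promoters the shares were 6.23%, 8.86% and 2.75%. At least 1 motif was found in 44 genes (63.8%), against 35.4% of tested genes. The median log2 fold change was -0.046 in members with and -0.10 in members without the NRF1 motif, -0.073 and -0.079 for ETS, and -0.11 and -0.072 for YY1. These are matches of letters and not sites of binding.

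Promoters of 5 lower members and of the paired gene Mrps11 are shown because they carry these motifs, which stand in capitals. That of Mrpl32 (chr13:14612988-14613287, minus strand) holds the NRF1 motif, starting 87 bases before the start, and further upstream the YY1 motif on the other strand. Those of Mrpl42 (chr10:95501900-95502199, minus strand) and Mrpl37 (chr4:107066817-107067116, minus strand) hold the YY1 motif 28 and 27 bases after the start. The promoter of Mrps23 (chr11:88204138-88204437, plus strand) holds the ETS motif on the other strand, that of Mrpl45 (chr11:97315466-97315765, plus strand) 3 NRF1 motifs, and that of Mrps11 (chr7:78782881-78783180, plus strand) the YY1 motif on the other strand.
Mrpl32: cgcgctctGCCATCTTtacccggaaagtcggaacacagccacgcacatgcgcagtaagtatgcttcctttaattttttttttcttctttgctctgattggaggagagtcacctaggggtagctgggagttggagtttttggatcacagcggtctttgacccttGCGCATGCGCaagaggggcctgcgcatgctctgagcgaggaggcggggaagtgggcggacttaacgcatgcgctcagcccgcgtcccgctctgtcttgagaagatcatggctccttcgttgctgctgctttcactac
Mrpl42: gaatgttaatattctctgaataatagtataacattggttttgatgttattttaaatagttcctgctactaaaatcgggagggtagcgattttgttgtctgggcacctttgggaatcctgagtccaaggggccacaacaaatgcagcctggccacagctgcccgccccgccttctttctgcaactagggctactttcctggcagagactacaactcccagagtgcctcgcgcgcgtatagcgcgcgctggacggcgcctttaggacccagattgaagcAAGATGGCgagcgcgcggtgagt
Mrpl37: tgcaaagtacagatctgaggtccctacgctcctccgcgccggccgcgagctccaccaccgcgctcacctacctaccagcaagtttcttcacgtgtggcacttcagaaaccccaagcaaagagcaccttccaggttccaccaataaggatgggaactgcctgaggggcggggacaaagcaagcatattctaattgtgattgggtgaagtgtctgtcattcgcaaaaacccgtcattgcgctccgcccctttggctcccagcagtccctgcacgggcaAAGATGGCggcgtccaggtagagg
Mrps23: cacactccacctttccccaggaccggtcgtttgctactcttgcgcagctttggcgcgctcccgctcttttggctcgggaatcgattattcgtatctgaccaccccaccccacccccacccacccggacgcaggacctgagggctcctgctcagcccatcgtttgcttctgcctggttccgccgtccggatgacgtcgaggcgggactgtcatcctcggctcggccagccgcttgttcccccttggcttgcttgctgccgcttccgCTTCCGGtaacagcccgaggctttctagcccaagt
Mrpl45: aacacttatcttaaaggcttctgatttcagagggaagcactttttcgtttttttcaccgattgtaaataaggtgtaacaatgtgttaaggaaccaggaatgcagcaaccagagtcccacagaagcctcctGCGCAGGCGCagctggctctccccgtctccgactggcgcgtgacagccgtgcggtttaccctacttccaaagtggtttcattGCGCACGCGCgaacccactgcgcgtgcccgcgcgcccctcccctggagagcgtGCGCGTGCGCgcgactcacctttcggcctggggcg
Mrps11: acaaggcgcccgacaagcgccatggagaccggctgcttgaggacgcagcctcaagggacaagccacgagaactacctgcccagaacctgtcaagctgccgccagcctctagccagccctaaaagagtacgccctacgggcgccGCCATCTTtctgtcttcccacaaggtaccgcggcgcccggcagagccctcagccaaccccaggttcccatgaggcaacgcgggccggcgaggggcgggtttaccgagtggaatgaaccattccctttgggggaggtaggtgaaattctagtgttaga
The promoter of Mrpl16, another of the 6 members without overlap, held none of the 3 motifs, and that of Mrpl18 held the ETS motif 240 bases before the start. Among the other lower members, the promoters of Mrpl1 and Mrpl47 also held none of the 3 motifs, and that of Mrpl22 held the ETS motif.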

How the data were processed

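RNA from 8 heart samples was analysed, 4 sedentary and 4 swimming, from the authors' deposited table of FPKM per transcript, the unit per the file headers. The build is mm10, and the submitters' processing notes name HISAT2, Salmon 0.8.2, featureCounts 1.4.6-p5, Subread and STAR 2.5.1a. Which of these made the FPKM values was not given in the sources used here. Per the labels' protocols, rRNA was digested away enzymatically and cDNA was primed with random hexamers. No label says whether the libraries mark the strand, so overlapping genes can share reads.

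Of 51169 transcripts, 45742 had Ensembl identifiers, and 45676 were named with GENCODE M21 and summed to 18137 genes. Reads assigned to the 5427 assembled transcripts are not in these sums. Genes with a mean of at least 0.5 FPKM were compared after taking log2(FPKM + 0.5). The test was limma (version 3.58.1, R version 4.3.3, lmFit, eBayes with trend; two-sided, all 8 libraries, no covariate), with Benjamini-Hochberg adjustment over all 11674 genes, or 22614 transcripts, and a call at an adjusted p below 0.05. This scale understates changes of low genes. Members and lists were chosen with earlier results of these data known. The lowest values of 28 library pairs lay at ratios of small whole numbers in 18.3% to 25.9% of cases, against a background of 7.26% to 8.11%, too few to recover reads; hence no count test was run. The fit was also run on simulated data with known changes, drawn with the means and spreads of these data. Tables and figures were made with Python 3.11.15, pandas 2.3.3 and matplotlib 3.10.9.

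Values in every library are given for the 6 highest and 3 lowest members of each subunit, up to 8 members with the smallest p in each direction, members without overlap between groups, members with a called gene or transcript, members whose major transcript share differed by 20 or more percentage points, the member below the filter, and 7 members named whatever their values. Alternatives tried were other pseudocounts, filters and scalings, the most abundant transcript alone, array weights, the variance trend, subunits by structure, the replicate block and each library left out. Leaving out swimming replicates 2 and 3 together, where mt-Co1 was lowest, was added after seeing the data.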

Additional observations from a re-analysis of the deposited data

Results flagged for a closer look

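In 15 of 156 groups of 4 libraries, 1 library lay so far from the other 3 that its gap to the nearest, relative to the range of the group, exceeded Dixon's critical value for groups of this size. Chance flags about 1 in 20 groups of normally distributed values. Groups of all genes were not flagged in this way, so the numbers have no background from these data beside them. Of the 15, 6 were values of sedentary replicate 3.

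In sedentary replicate 3, Mrpl18 stood at 34.3 FPKM (others 20.6 to 21.9), Mrps33 at 23.4 FPKM (20.4 to 20.7) and Mrps9 at 19.4 FPKM (17.1 to 17.5), above the other sedentary libraries. In the same library Mrpl51 stood at 0.740 FPKM (others 13.4 to 13.9), Mrpl1 at 9.36 FPKM (13.7 to 14.5) and Mrps34 at 2.07 FPKM (6.73 to 6.95), below the others.

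In the other sedentary libraries, Mrps10 in replicate 2 stood at 4.22 FPKM (others 0.0256 to 0.115) and Mrpl53 in replicate 2 at 6.72 FPKM (0.531 to 0.742). Mrps16, a bacterial-type small subunit protein, was low in replicate 1 at 4.81 FPKM (6.98 to 7.38) and Mrpl47 was low in replicate 4 at 4.25 FPKM (4.75 to 4.81).

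Among the swimming libraries, Mrpl30 was low in replicate 1 at 55.7 FPKM (others 92.8 to 100.2) and Mrps21 was low in replicate 2 at 13.4 FPKM (36.0 to 37.9). In replicate 3, Mrpl37 was low at 15.7 FPKM (16.6 to 16.8), while Mrps18a, a subunit of the large particle by structure, was high at 17.0 FPKM (9.19 to 10.3) and Mrpl52, a mitochondria-specific large subunit protein, was high at 9.47 FPKM (8.01 to 8.18).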

How the results depend on the processing

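The median log2 fold change of the members stayed negative under all 20 alternatives, from -0.10 to -0.014, and the number of negative members was between 44 and 58. Scaling all libraries to the same total over named genes moved the members' median to -0.014, that of the large subunit to 0.0090 and that of the small subunit to -0.059. The cause was not tested. The mean log2 difference between large and small subunit levels, 0.55 over the 8 libraries, became 0.46 both without the filter and with the most abundant transcript alone.

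Counts of called genes (2 in the report) were 1 with a pseudocount of 0.1 and with quantile normalization, 0 with the replicate block and 0 without swimming replicates 2 and 3, which had the lowest mt-Co1; without single libraries they ran from 0 to 5. Called members were 0 to 1 without single libraries, with Mrps10 called without sedentary replicate 2 and Mrpl1 without sedentary replicate 3. Called transcripts (12) ran from 6 to 26 without single libraries and were 0 with the replicate block. Called member transcripts (1) were 0 with median-of-ratios scaling, with either other pseudocount and with the replicate block, and 0 to 3 without single libraries.

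Of 480 repeats for 24 named genes, 470 kept direction and side of the threshold, 2 passed it and 8 changed sign. No member passed in the main gene test, so keeping the side of the threshold says little. The size of fold changes moved more: that of Mrpl32 ran from -0.63 to -0.18 in log2 units, and that of Mrpl3 reached 1.11. Mrpl3 became -0.067 without swimming replicates 2 and 3 together and ran from -0.079 to 0.30 without single libraries. Mrps14 became 0.055 with the most abundant transcript alone and ran from -0.30 to 0.029 without single libraries. Mrpl12 became 0.034 with the same total over named genes and ran from -0.070 to 0.0051 without single libraries, and Mrpl58 became -0.013 with the most abundant transcript alone.

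Same-numbered libraries did not deviate together (correlations -0.054, 0.0145, -0.00327 and 0.0234), so the replicate block was not used to pair them; it changed no fold change and called 0 members. Depth per library is unknown, and sums over transcripts hide errors in how reads were divided among forms. Where forms differ in length, the FPKM sum of a gene also depends on that division.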
